A study of Mus musculus with 10 samples.

Results

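DNA replication genes were followed in MC3T3-E1, a line of mouse pre-osteoblasts from newborn calvaria, as the cells left proliferation and became mineralizing osteoblasts. The set held 42 genes of the 40620 in the count table, chosen by what their products do, with earlier results of these data known. They encode the proteins that mark origins, load and start the replicative helicase, copy the strands, join the fragments and supply deoxynucleotides. RNA-seq was performed at 5 stages with 2 replicates each, named A and B: subconfluent and confluent cells (day 0) in αMEM growth medium with 10% serum, and cells after 24 h, 14 d and 21 d in differentiation medium, which also held ascorbic acid (50 µg/ml) and, as a phosphate source, β-glycerophosphate (10 mM). No treated or genetically altered cells were among these libraries, so each stage is compared with an earlier stage of the same line. All 42 genes were found by Ensembl identifier and passed the filter on low counts.

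Each library had between 44736156 and 162939333 counts on genes, and the lowest count of any replication gene was 35, for Orc1. The same index sequences mark the libraries of the first 3 stages, while the 14 d and 21 d libraries have different ones, so a difference between 24 h or earlier and 14 d or later cannot be told apart from a difference between the sets of libraries. The steps from subconfluent to confluent, confluent to 24 h and 14 d to 21 d lie within a set, which means only that the index sequences are shared. Confluent A and 24 h A have the same index and lane number, and so do 14 d A and 21 d A. The sequencing runs are not given in the labels, so a difference between runs within a set cannot be told apart from one between stages. The replicates at 24 h stood apart from each other: the SD of log2(A/B) over genes was 0.58 there and 0.22 to 0.29 at the other stages, and over the replication genes it was 0.35 against 0.07 to 0.18. The log2(A/B) varied with gene length at several stages: Spearman's rho across genes, a description, was -0.57 at 24 h (14259 genes), 0.35 in subconfluent and 0.40 in confluent cells, 0.12 at 14 d and 0.19 at 21 d. Over the 42 replication genes it was -0.45, 0.38, 0.45, -0.06 and -0.06 in the same order. Osteoblast identity was checked with 8 markers, all of which reached at least 1 RPKM in some library. Of the blood and macrophage markers, Ptprc, the pan-leukocyte antigen, was listed at 0 in every library. Itgam (5.0 to 9.86 RPKM) and Csf1r (1.83 to 3.19 RPKM) were above 1 RPKM in all of them. The 6 blood and macrophage markers summed to between 8.17 and 14.7 RPKM in most libraries but reached 188.8 in a confluent, 223.2 in a 14 d and 267.0 in a 21 d library, where the excess was Tyrobp, a myeloid signalling adaptor, at up to 256.3 RPKM. No endothelial, red cell or skeletal muscle marker reached 1 RPKM, against 1 of 5 adipocyte and 2 of 4 cartilage markers. The cartilage markers were Col2a1, at 33.1 to 210.4 RPKM, and Sox9, at 12.6 to 36.1 RPKM over the libraries. The part of these markers in the results was not tested. The labels do not say that A and B were separate cultures, so p-values measure only the spread between these libraries.

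A cell copies its genome once per division. In G1, the origin recognition complex and its partners load a closed ring of MCM proteins onto origins. In S phase, kinases and accessory factors turn each ring into a working helicase, the polymerases follow with the sliding clamp Pcna, and ribonucleotide reductase and its partners make the deoxynucleotides. Transcription of most of these genes is known to rise at the start of S phase through E2F transcription factors and to be low in cells that have left the cycle. In culture, pre-osteoblasts proliferate, reach confluence and then lay down and mineralize matrix.

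Every replication gene was lower at 21 d than in subconfluent cells, by a median log2 fold change of -2.62. All 42 passed the test (edgeR's quasi-likelihood test, Benjamini-Hochberg adjusted p under 0.05) and 41 fell more than 2-fold, against 23.5% and 11.3% of the 20808 genes tested. The median over all genes was 0.039. The falls ran from 20-fold for Mcm10 (log2 -4.32 ± 0.19 SE) to 1.74-fold for Gins4 (log2 -0.80 ± 0.10 SE), the 1 gene that changed less than 2-fold. Together the 42 genes took 0.379% and 0.385% of all counts in the subconfluent libraries and 0.0584% and 0.0638% at 21 d. In a culture, fewer cells in the cycle and less RNA per cycling cell cannot be told apart in these values. An F test over the 5 stages was also passed by all 42 genes, but 48.9% of all genes tested passed it.

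The fall was spread over all 4 steps, and most of it came after confluence. At confluence the genes stood at a median of 76.3% of the subconfluent level, from 62.8% for Rrm2 to 95.1% for Orc2, and no gene was under 50%. At 24 h the median was 58.1% and 11 genes were under 50%. At 14 d it was 42.4%, with 34 genes under 50%, and at 21 d 16.3%, with 41. In terms of the log2 fall from subconfluent to 21 d, a median of 14.5% was complete at confluence, 27.6% at 24 h and 50.3% at 14 d. On this log2 scale the step from 14 d to 21 d held the largest part of the fall for 38 of the 42 genes. The exceptions were Orc2 and Pold2, with the largest part between confluence and 24 h, and Gins4 and Dut, with it between 24 h and 14 d. On a linear scale the order of the steps was another. The stage mean RPKM of the 42 genes summed to 1791.5, 1392.2, 1021.1, 639.3 and 321.1 from subconfluent to 21 d. This sum dropped least at the last step.

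**Figure D1:**
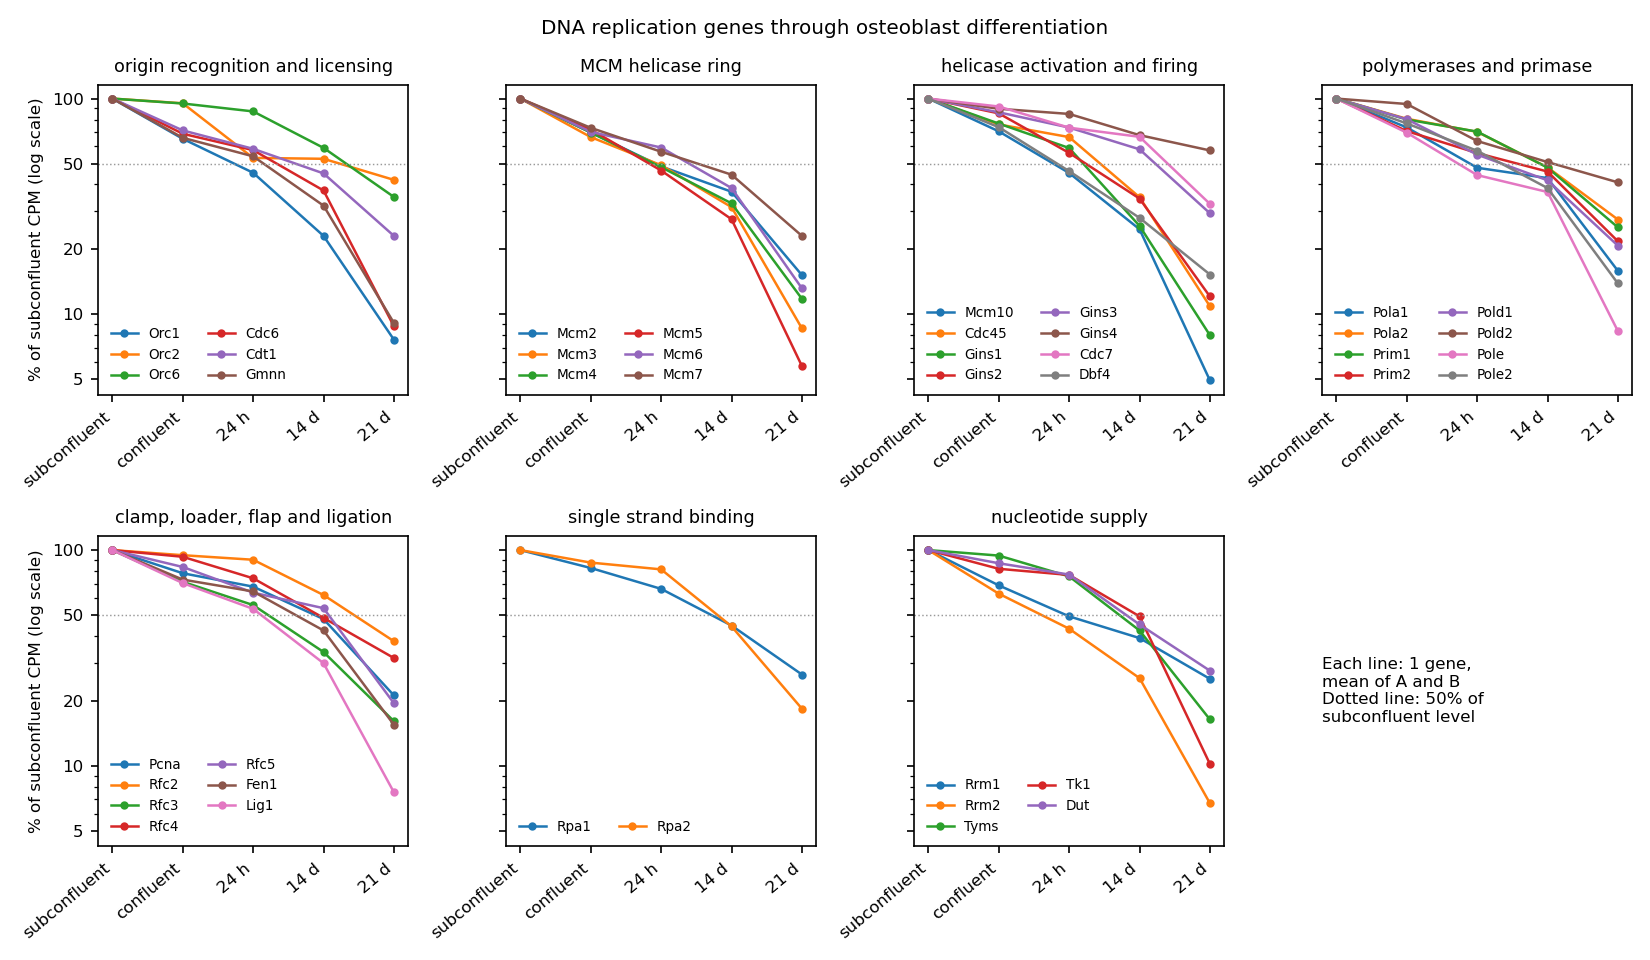
Level of each replication gene at each stage, in % of its subconfluent level (TMM-normalized counts, mean of A and B, log axis), in 1 panel per role. No line is under 50% at confluence, and all but that of Gins4 are under 50% at 21 d.

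Whether the fall after confluence was larger than the fall before it was tested directly, as the change from confluent to 21 d minus the change from subconfluent to confluent. The difference was negative for all 42 genes and passed for 40, against 9.25% of all genes that passed in that direction. The exceptions were Orc2 (difference -1.11 ± 0.35 SE, adjusted p = 0.074, edgeR) and Gins4 (difference -0.48 ± 0.17 SE, adjusted p = 0.094, edgeR). The change from confluent to 21 d crosses between the sets of libraries, while that from subconfluent to confluent does not. A difference between the sets therefore cannot be told apart from this result. The periods compared are also not equally long, and how long the cells took to reach confluence is not given in the sources used here. Per day, the median log2 change was -0.35 in the first 24 h of differentiation medium, -0.0438 from there to 14 d and -0.181 from 14 d to 21 d. The last step was also compared with the whole period from confluence to 14 d, as the change in it minus the change over that period. Here the period to 14 d crosses between the sets and the last step does not. The difference was negative for 33 of 42 genes (median -0.33, against -0.08 over all genes). It was largest for Tk1 (-1.54 ± 0.39 SE, adjusted p = 0.053, edgeR). It passed for Cdc6, Mcm5 and Mcm6 only (3 of 42, against 6.04% of all genes), a share near that of all genes. This count was 12 without both 24 h libraries, 12 and 10 without 24 h A and 24 h B, 1 and 4 without 21 d A and 21 d B, and 0 without any other single library.

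**Figure D2:**
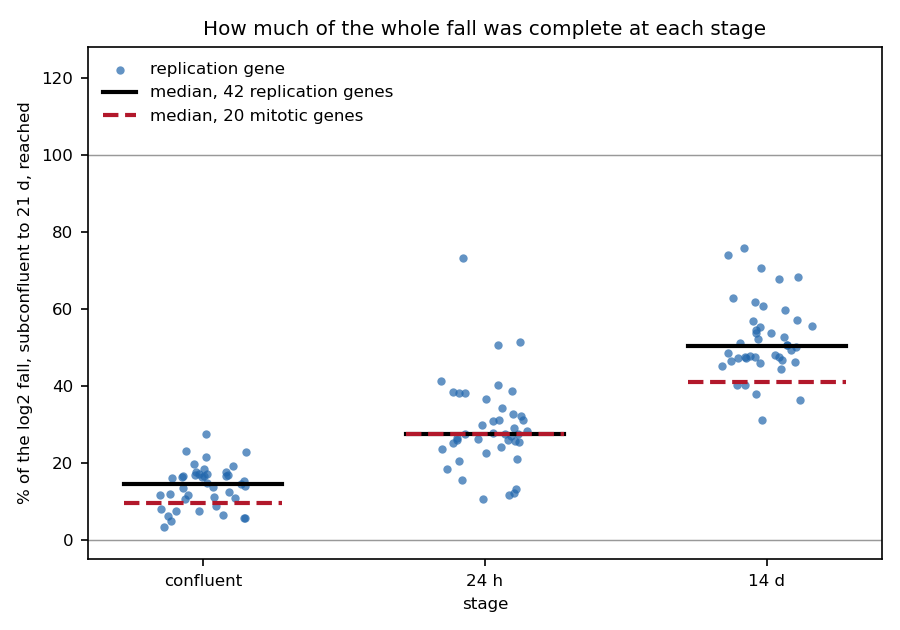
Share of the log2 fall from subconfluent to 21 d that was complete at confluence, 24 h and 14 d, with 1 point per replication gene (points are spread sideways for clarity). The black medians, 14.5%, 27.6% and 50.3%, lie above the dashed medians of 20 mitotic genes at confluence and 14 d and on the same value at 24 h.

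At each step the count of genes that passed was read against the share of all genes called lower. From subconfluent to confluent, 5 of 42 passed and none changed more than 2-fold (median log2 fold change -0.39), against 1.34% and 0.423% of all genes. These were Mcm3, Mcm6, Mcm7, Prim2 and Rrm2. This count depended on the libraries in the fit. It was 21 without the 24 h libraries, where 1667 of 19994 genes were lower against 278 of 20808 with all libraries, and 19 with only the groups compared, where 566 of 18923 were lower. It was 21 and 20 without 24 h A and 24 h B alone (1610 and 1583 genes lower), 1 without either 21 d library and 0 without any other single library (30 to 105 genes lower). From confluent to 24 h, 5 passed and none changed more than 2-fold (median -0.35), against 1.57% and 0.365%. These were Mcm5, Mcm7, Dbf4, Pold1 and Pold2, and the count was 0 without either confluent library, 2 without either subconfluent library or 14 d B, 3 without 14 d A, and 15 and 19 without 24 h A and 24 h B. Calls over all genes moved too, from 326 lower genes to 38 and 46 without confluent A and B, 855 without 24 h A and 4338 of 21608 without 24 h B. Both the confluent and the 24 h replicates differed with gene length, and the part of this in the counts was not tested. With all libraries the fitted change was negative for all 42 genes at both of these steps, where the median over all genes was 0 and -0.001. Without confluent A it was negative for 40 at the first of these steps, and at the second for 40 without confluent B and 36 without 24 h B.

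After 24 h the calls were more frequent. From 24 h to 14 d, 26 genes passed and 1, Gins1, changed more than 2-fold (median -0.57), against 8.21% and 1.51% of all genes. Without replicate A or B of 14 d the count was 5 or 3, with 352 or 253 genes lower in all against 1708. From 14 d to 21 d, 37 passed and 27 changed more than 2-fold (median -1.27), against 5.95% and 2.45%. Both stages of this step have the same index sequences, but whether they shared a sequencing run is not given in the labels. The 5 that did not pass were Orc2, Orc6, Gins4, Pold2 and Rfc4. From confluent to 14 d all 42 passed and 14 changed more than 2-fold (median -0.90), against 15.3% and 3.85%. No replication gene was called higher in any of the 6 comparisons.

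**Figure D3:**
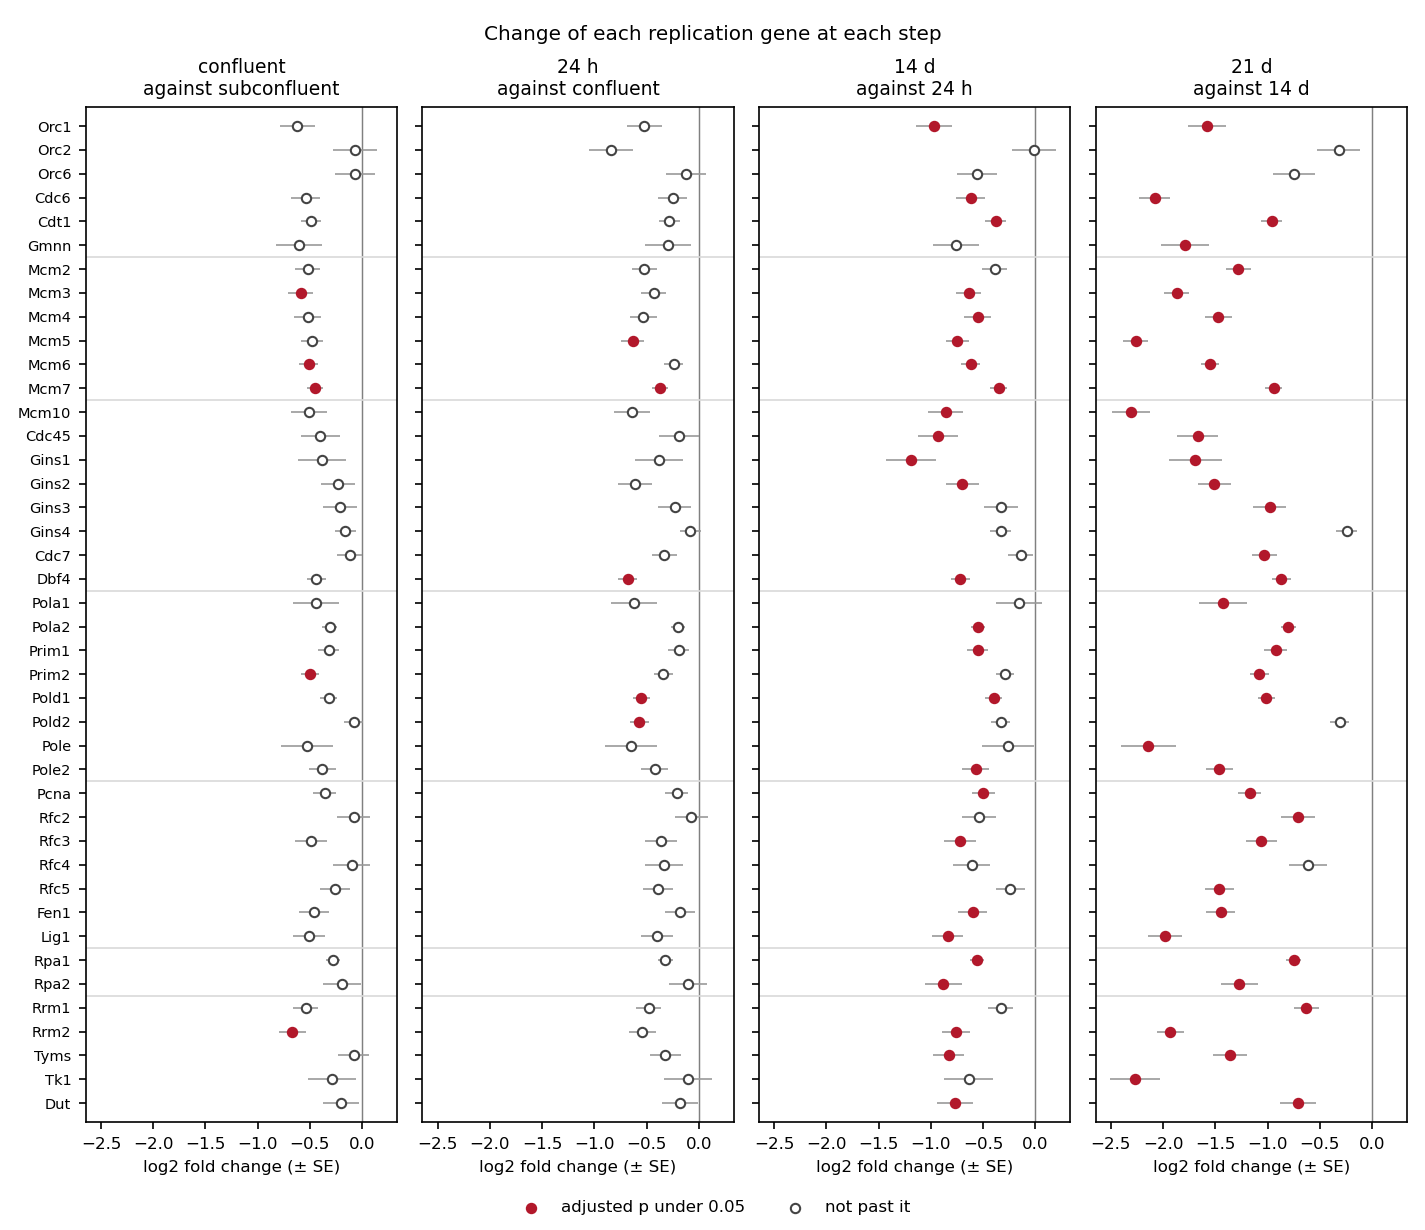
Log2 fold change of each replication gene (± SE, n = 2 per stage) at the 4 successive steps, grouped by role with grey lines between roles. Filled red points passed at an adjusted p under 0.05; they number 5, 5, 26 and 37 from left to right.

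The genes that fell together were also compared by the DNA before their start sites. RefSeq promoter windows (GRCm38.p6, 250 bases before to 50 after the start, 300 bases in all) were found for 34 of the 42 genes. They were searched on both strands for 4 words that E2F factors are known to bind (TTTCCCGC, TTTGGCGC, TTTCGCGC and TTTGCCGC), for the words TTTGAA and TTTAAA of the cell cycle homology region (CHR), an element of late cell cycle genes, and for CCAAT, the word of the nuclear factor Y box. Matches may overlap each other, as E2F words do in Mcm5 and Mcm6, and an E2F word may share its last base with CCAAT, as in Mcm7. An E2F word was present in 13 of the 34 genes, 38.2%, against 2.6% of the 27025 genes of the promoter table. A CHR word was present in 11, 32.4%, against 30.6%, and CCAAT in 20, 58.8%, against 41.1%. Of 17 mitotic genes with a window, 1 held an E2F word, 14 a CHR word and 14 CCAAT. These matches are a description of letters and do not show binding.

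The windows of the 3 genes with the largest and the 2 with the smallest fall that have one are shown 5′ to 3′ on the gene's strand. Capitals mark the matches to any of the words, on either strand.
Mcm10, chr2:5012742-5013041, minus strand: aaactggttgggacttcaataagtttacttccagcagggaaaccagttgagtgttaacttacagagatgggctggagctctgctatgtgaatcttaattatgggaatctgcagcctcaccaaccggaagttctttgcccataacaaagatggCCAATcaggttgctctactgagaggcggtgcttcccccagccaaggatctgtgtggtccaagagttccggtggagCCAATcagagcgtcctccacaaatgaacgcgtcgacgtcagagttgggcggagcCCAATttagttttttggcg
Mcm5, chr8:75109259-75109558, plus strand: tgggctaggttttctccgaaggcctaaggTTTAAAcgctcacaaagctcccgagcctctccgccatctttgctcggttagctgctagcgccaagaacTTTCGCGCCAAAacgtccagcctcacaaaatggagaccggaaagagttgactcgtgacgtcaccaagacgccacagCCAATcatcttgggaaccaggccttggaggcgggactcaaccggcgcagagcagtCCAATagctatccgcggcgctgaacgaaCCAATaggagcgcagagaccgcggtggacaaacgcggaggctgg
Rrm2, chr12:24708004-24708303, plus strand: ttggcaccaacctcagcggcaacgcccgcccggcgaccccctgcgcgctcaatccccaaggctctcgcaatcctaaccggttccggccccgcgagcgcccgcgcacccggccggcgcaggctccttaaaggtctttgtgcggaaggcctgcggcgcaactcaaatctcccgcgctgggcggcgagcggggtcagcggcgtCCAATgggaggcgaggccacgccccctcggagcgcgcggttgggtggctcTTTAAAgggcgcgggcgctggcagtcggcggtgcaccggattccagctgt
Orc2, chr1:58505060-58505359, minus strand: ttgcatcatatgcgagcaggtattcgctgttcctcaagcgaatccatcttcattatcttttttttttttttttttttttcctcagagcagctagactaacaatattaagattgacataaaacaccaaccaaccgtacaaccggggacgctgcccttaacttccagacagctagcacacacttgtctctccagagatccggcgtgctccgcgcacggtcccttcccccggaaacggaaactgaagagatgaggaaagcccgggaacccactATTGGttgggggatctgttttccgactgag
Pold2, chr11:5878207-5878506, minus strand: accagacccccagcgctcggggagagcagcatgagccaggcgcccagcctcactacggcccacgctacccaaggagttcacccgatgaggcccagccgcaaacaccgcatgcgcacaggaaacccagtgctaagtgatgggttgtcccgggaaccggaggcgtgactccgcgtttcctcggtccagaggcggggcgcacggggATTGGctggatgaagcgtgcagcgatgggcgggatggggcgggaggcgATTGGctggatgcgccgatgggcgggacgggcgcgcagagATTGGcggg

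The printed windows of Mcm10, Orc2 and Pold2 held CCAAT and no other word, that of Rrm2 a CHR word and CCAAT, and that of Mcm5 all 3 kinds. Orc2 and Pold2 each have a further window from another start, and a CHR word was found there. The E2F words of 6 genes from 6 roles or complexes are shown in capitals with 8 bases on either side, in GRCm38.p6 and on the gene's strand, to show where the matched words lie. Their likeness was fixed by the words searched.
Orc1, chr4:108579419-108579442, plus strand: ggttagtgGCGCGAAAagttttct
Cdc6, chr11:98908005-98908028, plus strand: ggtggagaGCGGGAAAtcgcctgg
Mcm5, chr8:75109348-75109371, plus strand: ccaagaacTTTCGCGCcaaaacgt
Gins3, chr8:95633510-95633533, plus strand: agtgcggcGCGGGAAAgcgagttt
Pola1, chrX:93632278-93632301, minus strand: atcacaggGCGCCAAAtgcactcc
Lig1, chr7:13278844-13278867, plus strand: caaagtgcGCGCGAAAtctgtgtg

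Of the 5 MCM ring genes with a window, 4 held an E2F word (Mcm3, Mcm5, Mcm6 and Mcm7) and Mcm2 did not. The 13 genes with an E2F word had a median log2 fold change of -2.84 from subconfluent to 21 d, with a range from -4.12 to -1.76. The 21 genes without one had a median of -2.24, with a range from -4.32 to -1.25. The ranges overlapped over most of their length, and the gene with the largest fall, Mcm10 (GRCm38 chr2:4989714-5012791, minus strand), had no E2F word within its window. That window ends in tttggcg, all but the last base of the word TTTGGCGC, and the base past its edge was not searched.

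Genes of origin recognition and licensing fell by a median log2 fold change of -2.78 from subconfluent to 21 d, but unevenly. Orc1, the subunit of the origin recognition complex that is known to cycle, was at 6.19 and 5.87 RPKM (A and B) in subconfluent cells, 4.01 and 3.99 at confluence, 2.27 and 2.98 at 24 h, 1.3 and 1.14 at 14 d and 0.361 and 0.488 at 21 d. The values of each stage lay below all those of the stage before, and the fall was 13-fold (log2 -3.70 ± 0.19 SE, edgeR adjusted p = 1.1e-05). Part of the Orc1 exons, 10.8%, lies opposite exons of Gm12743, and whether the counting used strand is not given in the sources used here.

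Orc2, a core subunit of the same complex, was at 15.8 and 15.7 RPKM in subconfluent and 14.8 and 15.6 in confluent cells, 5.81 and 10.3 at 24 h, 7.22 and 7.26 at 14 d and 5.75 and 6.42 at 21 d. It was thus nearly level up to confluence, and the replicates disagreed at 24 h, where A was lower than either 14 d library and B was higher. From 14 d to 21 d the change was small (log2 -0.32 ± 0.21 SE), though the values of these stages did not overlap. Its fall was 2.38-fold from subconfluent to 21 d (log2 -1.25 ± 0.21 SE, edgeR adjusted p = 0.002), and none of the 4 single steps passed. Nif3l1, on the opposite strand, covers 29.8% of the Orc2 exon bases, so its value is uncertain.

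Orc6, the smallest subunit, was at 43.3 and 46.1 RPKM in subconfluent, 36.2 and 50.2 in confluent and 41.5 and 32.7 in 24 h cells, so that the first 3 stages overlapped. It was lower at 14 d, at 23.3 and 23.0, and at 21 d, at 13.3 and 15.6 (log2 -1.51 ± 0.20 SE from subconfluent). Exons of Vps35, which has higher counts, lie opposite 6.9% of the Orc6 exon bases. The 3 remaining subunits, outside the set of 42, did not pass between subconfluent cells and 21 d: Orc3 changed by -0.14 ± 0.08 SE, Orc4 by -0.08 ± 0.15 SE and Orc5 by 0.05 ± 0.09 SE on the log2 scale. Within 1 complex, the log2 change thus ran from -3.70 to 0.05.

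The loading factors followed Orc1 more closely. Cdc6, the ATPase that recruits the MCM ring, was at 7.54 and 7.11 RPKM in subconfluent and 5.3 and 4.96 in confluent cells, 3.77 and 4.34 at 24 h, 2.43 and 2.39 at 14 d and 0.499 and 0.69 at 21 d. Its drop from 14 d to 21 d was 4.23-fold (log2 -2.08 ± 0.15 SE, edgeR adjusted p = 0.00047). That drop was larger than the one from confluence to 14 d (difference -1.21 ± 0.25 SE, adjusted p = 0.025, edgeR). The share of replication genes past this second test, 3 of 42, was near the 6.04% of all genes.

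Cdt1, which brings MCM to the origin, and Gmnn, which codes for its inhibitor geminin, were not lowered alike. Cdt1 was at 40.7 and 43.9 RPKM in subconfluent and 32.3 and 29.0 in confluent cells, 24.4 and 22.9 at 24 h, 17.6 and 15.7 at 14 d and 9.2 and 8.83 at 21 d. Gmnn was at 31.9 and 32.4, 21.4 and 21.7, 18.8 and 14.2, 9.19 and 8.78 and 2.12 and 3.29 RPKM at the same stages. The ratio of Gmnn to Cdt1 RPKM was 0.762 ± 0.0324 (SD, n = 2) in subconfluent cells and 0.705 ± 0.0623 at confluence, and 0.301 ± 0.101 at 21 d, below both values of every other stage. From subconfluent to 21 d Cdt1 fell 4.32-fold and Gmnn 10.9-fold.

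All 6 genes of the MCM ring, the motor of the helicase, had a negative fitted change at every step and fell by a median log2 fold change of -3.0 over the series. From 14 d to 21 d all 6 passed, with changes from -0.94 ± 0.08 SE for Mcm7 to -2.26 ± 0.12 SE for Mcm5. At 24 h, 4 of the 6 ring genes were under 50% of the subconfluent level. Of the log2 fall of the ring, a median of 31.7% was complete at 24 h, against 27.6% over the 42 genes and 35.5% for polymerases and primase. At 14 d it was 49.7%, against 50.3% over the 42 genes. At confluence the ring genes stood between 66.3% and 73.2%, the narrowest spread of the roles with more than 2 genes at that stage.

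The order of the subunits turned over. Mcm5 was at 107.3 and 112.0 RPKM in subconfluent and 85.0 and 75.6 in confluent cells, the highest of the 6 in each of those 4 libraries. It was at 45.2 and 52.3 at 24 h, 27.4 and 25.7 at 14 d and 5.34 and 6.32 at 21 d, where it was the lowest of the 6 in both libraries. Mcm2 was at 103.9 and 106.0, 77.5 and 71.4, 41.4 and 56.4, 35.2 and 33.0 and 14.7 and 14.8 RPKM at the 5 stages, and was the highest at 14 d and 21 d. Mcm7, at 42.8 and 42.4 RPKM in subconfluent cells, was the lowest of the ring in all 8 libraries up to 14 d and stood above Mcm3, Mcm4 and Mcm5 at 21 d, at 8.87 and 9.32.

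The Mcm5 to Mcm7 ratio of RPKM summed up this change. It was 2.57 ± 0.0983 (SD, n = 2) in subconfluent cells, 2.53 ± 0.195 at confluence, 2.1 ± 0.0204 at 24 h, 1.6 ± 0.0425 at 14 d and 0.64 ± 0.0542 at 21 d. The values at subconfluence and confluence overlapped, and from 24 h on each stage lay below the stage before. Mcm5 fell 17.3-fold and Mcm7 4.32-fold over the whole series. Exons of Mcm7 overlap those of Ap4m1 (7.3% of exon bases) and Cops6 (1.4%) on the opposite strand.

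**Figure D4:**
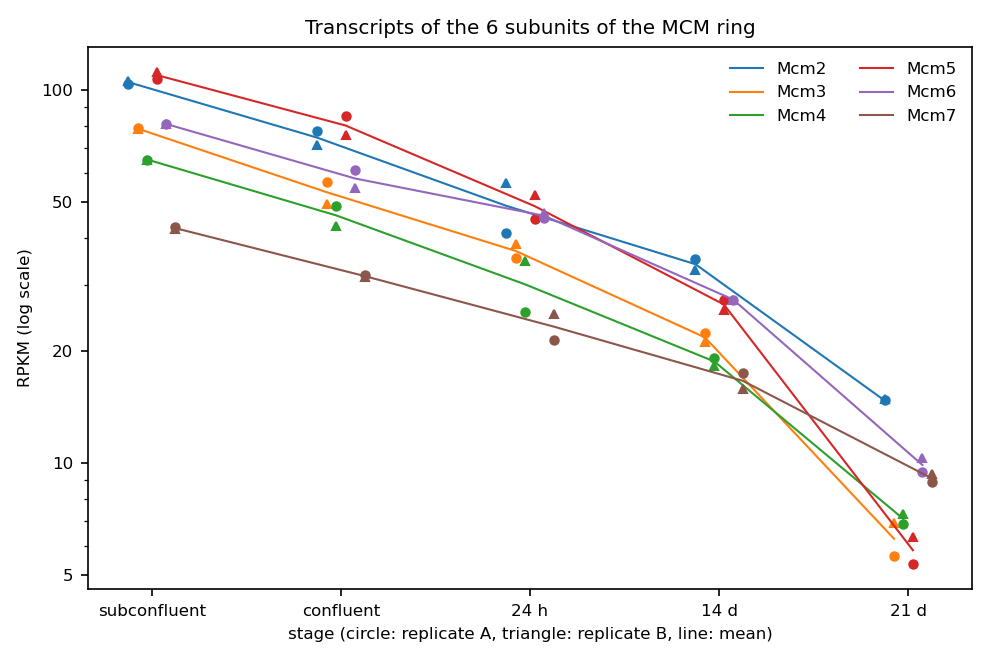
RPKM of the 6 MCM ring genes in every library (circle A, triangle B, line through stage means, log axis; genes are shifted sideways for clarity). Mcm5, in red, is at the top in subconfluent and confluent cells and at the bottom at 21 d, where it is at 5.34 and 6.32 RPKM.

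Factors that activate the helicase and fire the origin included the gene with the largest fall of all. Mcm10, a scaffold needed to start unwinding, was at 10.0 and 10.0 RPKM in subconfluent and 7.49 and 6.87 in confluent cells, 3.78 and 4.9 at 24 h, 2.36 and 1.99 at 14 d and 0.38 and 0.532 at 21 d. Each stage lay below the stage before in both replicates. The fall was 20-fold from subconfluent cells (edgeR adjusted p = 6e-06) and 4.97-fold from 14 d to 21 d, the largest of any replication gene at that step (log2 -2.31 ± 0.18 SE). Over the alternative settings its log2 change from subconfluent to 21 d ran from -4.61 to -2.92, and that of Mcm5 from -4.27 to -3.99. The rank of Mcm10 thus depended on the processing, and its difference from Mcm5 was not tested.

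Cdc45 and the 4 GINS subunits bind the MCM ring to complete the helicase. Cdc45 was at 23.0 and 23.1 RPKM in subconfluent cells, 18.2 and 17.4 at confluence, 15.7 and 13.4 at 24 h, 7.51 and 6.56 at 14 d and 1.84 and 2.78 at 21 d. Gins1 was at 17.4 and 17.8, 14.1 and 13.4, 11.5 and 8.21, 4.81 and 3.14 and 1.23 and 1.36 RPKM at these stages. Gins2 was at 42.2 and 46.3, 34.5 and 42.4, 23.6 and 23.7, 15.1 and 11.6 and 4.53 and 5.33 RPKM. These 3 genes were all much lower at 21 d, by 9.12-fold, 12.5-fold and 8.24-fold, but exons of Gse1 lie opposite 67.3% of the Gins2 exon bases, so the value of Gins2 is uncertain. Exons of Ufd1, which has higher counts, lie opposite 6.0% of the Cdc45 exon bases.

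Gins3 and Gins4, which form the same complex, did not keep pace with Gins1. Gins3 was at 7.22 and 6.78 RPKM in subconfluent and 5.88 and 6.42 in confluent cells, 4.73 and 5.11 at 24 h, 3.81 and 3.33 at 14 d and 1.61 and 2.18 at 21 d. Gins4 was at 35.7 and 36.3, 32.3 and 33.4, 30.7 and 27.5, 21.8 and 20.9 and 18.9 and 19.2 RPKM, the flattest course of the 42 genes. At 21 d Gins4 stood at 57.5% of its subconfluent level and Gins1 at 8.0%. The Gins1 to Gins4 ratio of RPKM went from 0.489 ± 0.00249 (SD, n = 2) in subconfluent cells to 0.186 ± 0.0502 at 14 d and 0.068 ± 0.00389 at 21 d. The subunits of the complex are taken up in equal numbers in the textbook account, and protein was not measured here.

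The firing kinase showed a similar split between its parts. Dbf4, the activating subunit, was at 15.5 and 14.7 RPKM in subconfluent and 11.6 and 11.1 in confluent cells, 6.25 and 7.12 at 24 h, 3.84 and 3.6 at 14 d and 1.98 and 2.3 at 21 d. It fell early, with a change of -0.68 ± 0.09 SE from confluence to 24 h (log2, edgeR adjusted p = 0.0099). Cdc7, the catalytic subunit, was at 5.6 and 5.46 RPKM in subconfluent and 5.07 and 5.29 in confluent cells, 3.48 and 4.31 at 24 h, 3.34 and 3.11 at 14 d and 1.53 and 1.78 at 21 d. Its step from 14 d to 21 d passed (log2 -1.03 ± 0.12 SE, edgeR adjusted p = 0.002) and its 3 earlier steps did not. The Cdc7 to Dbf4 ratio of RPKM rose from 0.366 ± 0.00831 (SD, n = 2) in subconfluent cells to 0.868 ± 0.00359 at 14 d, with no overlap between successive stages up to there, and was 0.775 ± 0.00289 at 21 d.

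Polymerases and primase fell by a median log2 fold change of -2.23, the second smallest of the 7 roles. Pola1, the catalytic subunit of the polymerase that starts each strand, was at 15.6 and 14.2 RPKM in subconfluent cells, 11.8 and 10.5 at confluence, 4.98 and 8.81 at 24 h, 5.6 and 5.61 at 14 d and 1.94 and 2.43 at 21 d. Prim1, the primase that lays the RNA primer, was at 23.9 and 23.5, 19.8 and 18.8, 16.3 and 15.5, 10.0 and 9.87 and 5.07 and 6.01 RPKM. Prim1 was lower at each stage than at the stage before, while the 24 h replicates of Pola1 lay on either side of its 14 d values.

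The subunits of the leading and lagging strand polymerases spanned overlapping ranges. From subconfluent to 21 d the log2 change was -3.57 ± 0.28 SE for Pole, -2.84 ± 0.14 SE for Pole2, -1.36 ± 0.11 SE for Pole3 and -0.61 ± 0.13 SE for Pole4 of the leading strand enzyme, and -2.27 ± 0.09 SE for Pold1, -1.29 ± 0.09 SE for Pold2 and -1.18 ± 0.09 SE for Pold3 of the lagging strand enzyme (Pole3, Pole4 and Pold3 are outside the set). Pole, the catalytic subunit of the leading strand enzyme, was at 9.0 and 8.41 RPKM in subconfluent and 6.52 and 5.79 in confluent cells, 2.71 and 4.72 at 24 h, 3.01 and 2.63 at 14 d and 0.538 and 0.803 at 21 d. Its 24 h and 14 d values overlapped. It fell 11.9-fold in all and 4.4-fold from 14 d to 21 d (log2 -2.14 ± 0.26 SE, edgeR adjusted p = 0.0029). Pold2, an accessory subunit of the lagging strand enzyme, was at 64.5 and 68.0, 60.0 and 67.3, 40.4 and 40.2, 30.7 and 28.3 and 24.3 and 25.6 RPKM, and stood at 40.9% of the subconfluent level at 21 d. Pold2 did not pass from 14 d to 21 d (log2 -0.31 ± 0.09 SE, edgeR adjusted p = 0.082).

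The catalytic subunit of that enzyme, Pold1, fell further than Pold2, by 4.81-fold against 2.44-fold. The Pold1 to Pold2 ratio of RPKM was 0.457 ± 0.00343 (SD, n = 2) in subconfluent cells, 0.377 ± 0.0225 at 14 d and 0.232 ± 0.00997 at 21 d. Outside the set, Pold4, the smallest subunit of the enzyme, was the 1 of 38 other replication genes called higher at 21 d, chosen for mention after its values were seen. It was at 22.2 and 24.8 RPKM in subconfluent and 77.9 and 86.5 at 21 d, with no overlap (log2 1.92 ± 0.21 SE). Of the remaining genes of this role, Pola2, Prim2 and Pole2 changed by -1.86 ± 0.07, -2.20 ± 0.09 and -2.84 ± 0.14 SE.

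Clamp, clamp loader, flap and ligation genes included the most abundant transcript of the set. Pcna, the sliding clamp, was at 184.1 and 180.3 RPKM in subconfluent and 147.8 and 142.0 in confluent cells, 124.9 and 110.5 at 24 h, 78.5 and 74.4 at 14 d and 34.2 and 37.1 at 21 d. It had the highest mean RPKM of the 42 genes at every stage and fell 4.71-fold. A processed copy, Pcna-ps2, was counted at 78.8% to 83.2% of the Pcna count in every library. Reads of these near-identical sequences may be split between them, so the level of Pcna is uncertain, while the share of the copy hardly moved between stages.

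The clamp loader opens the clamp and sets it on DNA. Rfc3, a loader subunit, was at 21.8 and 24.2 RPKM in subconfluent cells, 17.5 and 16 at confluence, 13.3 and 11.1 at 24 h, 7.57 and 6.02 at 14 d and 3.26 and 3.58 at 21 d. Rfc2 was at 56.3 and 59.8, 53.7 and 58.3, 57.0 and 42.6, 31.4 and 31.5 and 19.9 and 20.6 RPKM. The first 3 stages of Rfc2 overlapped. Of the 4 loader genes in the set Rfc2 fell least, by 2.64-fold against 6.19-fold for Rfc3. Rfc1, the large subunit outside the set, changed by -1.06 ± 0.11 SE (log2, against -1.40 ± 0.16 SE for Rfc2). Exons of Lat2 lie opposite 15.1% of the Rfc2 exon bases. Rfc4 and Rfc5 fell 3.15-fold and 5.11-fold, and 12.7% and 10.7% of their exon bases lie opposite exons of Eif4a2 and Wsb2, which have higher counts.

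Fen1 and Lig1 finish the lagging strand, Fen1 by trimming flaps and Lig1 by sealing nicks. Fen1 was at 24.0 and 25.0 RPKM in subconfluent cells, 19.0 and 17.4 at confluence, 16 and 14.0 at 24 h, 9.27 and 8.92 at 14 d and 3.1 and 3.88 at 21 d. Lig1 was at 55.5 and 55.1, 42.5 and 36.7, 29.0 and 27.5, 15.7 and 13.3 and 3.33 and 4.36 RPKM. Both had lower values at each stage than at the stage before. Lig1 fell 13.2-fold, the largest fall outside the helicase and nucleotide genes, and Fen1 6.45-fold. Exons of Gm10143 (mean count 0.4) and Tmem258 (mean count 8887.2) lie opposite 78.8% and 5.4% of the Fen1 exon bases. The mean count of Fen1 was 3432.2. Exons of Zswim9 lie opposite 5.8% of the Lig1 exon bases.

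Single strand binding protein coats unwound DNA in replication and in repair. Rpa1, its large subunit, was at 41.0 and 42.6 RPKM in subconfluent and 34.9 and 35.4 in confluent cells, 25.7 and 27.2 at 24 h, 16.8 and 15.9 at 14 d and 10.2 and 10.3 at 21 d. Rpa2, the middle subunit, was at 25.4 and 26.6, 23.5 and 22.7, 23.1 and 17.1, 10.8 and 9.33 and 3.95 and 4.86 RPKM. Rpa1 fell 3.77-fold and Rpa2 5.43-fold. This role had the smallest median of the 7, at -2.18, and Rpa3, outside the set, did not pass (log2 -0.65 ± 0.24 SE, edgeR adjusted p = 0.052).

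Nucleotide supply genes spanned the widest range of the roles at confluence, from 62.8% for Rrm2 to 94.3% of the subconfluent level for Tyms. Rrm2, the small subunit of ribonucleotide reductase that is known to limit the enzyme in S phase, was at 109.9 and 112.2 RPKM in subconfluent and 76.7 and 65.3 in confluent cells, 43.5 and 48.5 at 24 h, 24.9 and 24.8 at 14 d and 6.05 and 7.68 at 21 d. It had the largest change of all 42 genes at confluence (log2 -0.67 ± 0.13 SE, edgeR adjusted p = 0.04) and fell 14.9-fold in all. Rrm1, the large subunit, was at 136.4 and 138.7, 103.7 and 88.5, 56.6 and 73.7, 47.5 and 46.9 and 31.9 and 32.3 RPKM. More than 50% of the log2 fall of Rrm1 was complete at 24 h (51.4%), and its step from 14 d to 21 d was the smallest of the 5 nucleotide genes (log2 -0.63 ± 0.12 SE).

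The subunits of the reductase were thus lowered unequally. The Rrm2 to Rrm1 ratio of RPKM was 0.807 ± 0.00268 (SD, n = 2) in subconfluent cells, 0.739 ± 0.00146 at confluence, 0.713 ± 0.0791 at 24 h, 0.527 ± 0.00181 at 14 d and 0.214 ± 0.0339 at 21 d. Rrm2b, the alternative small subunit that is known to serve cells outside S phase, is in a list of 9 nucleotide genes not tied to S phase. It was at 1.19 and 1.13 RPKM in subconfluent cells and 2.95 and 2.88 at 21 d (log2 1.45 ± 0.18 SE, edgeR adjusted p = 0.00046). At 21 d Rrm2, at 6.05 and 7.68, remained above it.

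Of the genes of thymidylate supply, none passed at the first 2 steps. Tyms, which makes thymidylate, was at 13.9 and 14.1 RPKM in subconfluent and 12.9 and 14.0 in confluent cells, 11.4 and 8.78 at 24 h, 5.57 and 4.84 at 14 d and 2.03 and 2.22 at 21 d. Tk1, the cytosolic thymidine kinase, was at 24.2 and 24.2, 18.3 and 22.0, 20.2 and 15.2, 11.3 and 9.68 and 1.82 and 2.74 RPKM. At 14 d Tk1 had completed 31.0% of its log2 fall, the lowest share of the 42 genes, and from 14 d to 21 d it fell 4.82-fold (log2 -2.27 ± 0.24 SE, edgeR adjusted p = 0.0016). Dut, which keeps uracil out of DNA by removing dUTP, was at 56.1 and 59.3, 49.6 and 52.5, 48.4 and 36.0, 21.8 and 24.0 and 14.1 and 15.4 RPKM. Its fall, 3.62-fold, was the smallest of this role, and its subconfluent and confluent values did not overlap.

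The replicates of the last stage differed in 1 direction. At 21 d, 41 of the 42 replication genes were lower in A than in B, with a median log2(A/B) of -0.23 where the median over all genes was -0.01. The same held for 20 of 20 mitotic genes, with a median of -0.53. At the other 4 stages the count lower in A ran from 11 to 27 of 42. The result at 21 d did not rest on either library: without 21 d A or B, all 42 genes still passed from subconfluent to 21 d, and the median log2 fold change stayed between -2.69 and -2.52 over all the libraries left out.

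Set beside mitotic genes, the replication genes followed a similar course in the medians. The 20 mitotic genes stood at a median of 81.4% of the subconfluent level at confluence (replication genes 76.3%), 54.2% at 24 h (58.1%), 40.7% at 14 d (42.4%) and 11.4% at 21 d (16.3%). From subconfluent to confluent none of the 20 passed (19 of 20 were negative, median -0.30), and from 14 d to 21 d all 20 passed and fell more than 2-fold (median -1.84). The lists share no gene but share all libraries, and the difference between their medians was not tested. The largest changes from subconfluent to 21 d were those of Bub1 (log2 -3.91 ± 0.30 SE) and Nuf2 (-3.69 ± 0.22 SE), and the smallest those of Kif20a (-2.56 ± 0.16 SE) and Cenpf (-2.68 ± 0.18 SE).

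Among 38 replication genes outside the set, 31 were lower and 1 higher at 21 d than in subconfluent cells (median log2 fold change -1.78). Of all 20808 genes tested, 4882 were lower and 5671 higher. The largest changes were those of Clspn, the checkpoint adaptor claspin (-4.32 ± 0.22 SE), and Pclaf, a Pcna binding protein (-4.29 ± 0.24 SE), and the smallest those of Orc5 and Orc4. Of the 9 nucleotide genes not tied to S phase, 5 were lower and 3 higher (median -0.31), the latter a share close to that of all genes. The higher genes were Rrm2b, the mitochondrial kinase Tk2 (0.70 ± 0.09 SE) and the mitochondrial kinase Dguok (1.43 ± 0.21 SE), named after their values were seen. Dck, the cytosolic deoxycytidine kinase, fell most (-2.45 ± 0.18 SE), followed by Nme1 (-1.62 ± 0.18 SE), while Nme2 (0.01 ± 0.23 SE) and Dctd (-0.31 ± 0.11 SE) changed least.

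Genes of E2F factors and of the DREAM complex, which holds cell cycle genes silent in resting cells, were mixed. Of 20, 13 were lower and 2 higher at 21 d than in subconfluent cells (median -1.24), against 4882 lower and 5671 higher of all 20808 genes tested. The largest falls were those of E2f7 (-4.66 ± 0.68 SE), a repressor that is itself made in S phase, and Mybl2 (-4.31 ± 0.18 SE), an activator of late cell cycle genes. The higher genes, named after their values were seen, were E2f6 (0.47 ± 0.09 SE) and Rbl2 (0.97 ± 0.13 SE), the latter a pocket protein of resting cells and of DREAM. E2f5 and Lin52 changed least, by -0.06 ± 0.18 SE and 0.14 ± 0.12 SE.

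**Figure D5:**
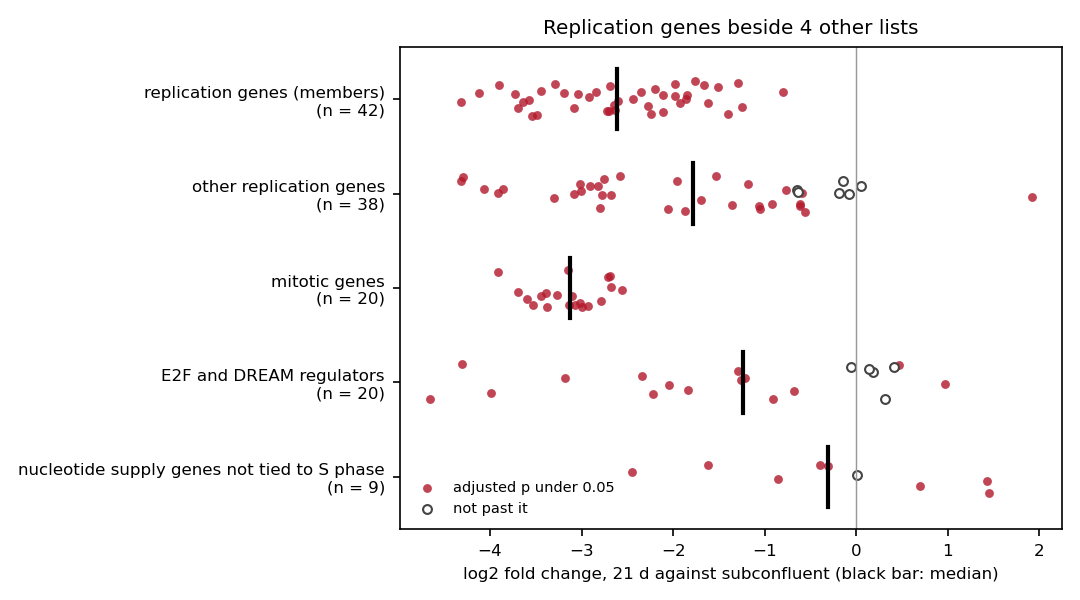
Log2 fold change from subconfluent to 21 d of the 42 replication genes and of 4 other lists, with 1 point per gene and a black bar at the median. The 42 replication genes and the mitotic genes lie below 0, with medians of -2.62 and -3.13, while the 38 other replication genes reach up to 1.92 (Pold4), the nucleotide list to 1.45 and the regulators to 0.97.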

How the data were processed

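RNA-seq of 10 MC3T3-E1 libraries (51 bp paired-end reads) was analysed, with groups taken from the labels. Per the submitters' processing notes, FastQC, TopHat2 2.0.9, R 3.0.1 and the mm10 build were used. The counting tool, annotation and strand setting are not given in the sources used here. The authors deposited whole-number counts per Ensembl gene and RPKM values, which they had normalized for length and depth. The merged column was used for the 2 libraries run on 2 lanes. The RPKM table lacks 17 genes of the count table and holds 1 incomplete row. Symbols and gene overlaps came from GENCODE vM21 (39547 of 40620 identifiers matched), and promoters from RefSeq.

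Counts were tested with edgeR 4.0.16 in R 4.3.3 (TMM factors, filterByExpr, 20808 genes kept). A quasi-likelihood model with a term per stage was fitted to all 10 libraries, since 2 per stage give little spread of their own. Benjamini-Hochberg adjustment covered all genes tested, and a gene passed at an adjusted p under 0.05. SE was derived from the log2 fold change and the F value. RPKM is given per library as deposited, and levels in % of subconfluent are from TMM-normalized counts (CPM). Alternatives used limma 3.58.1 and DESeq2 1.42.0. Tables and figures were made with Python 3.11.15, pandas 2.3.3, numpy 2.4.6 and matplotlib 3.10.9, and the fit was tested on simulated counts.

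The 42 genes and the other lists were chosen with earlier results of these data known. Named genes were a set of 27 members spread over the roles, plus the 3 members with the largest and the 3 with the smallest change at each comparison, and for each other list the 2 genes that changed most and the 2 that changed least from subconfluent to 21 d.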

Additional observations from a re-analysis of the deposited data

How the results depend on the processing

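The fall from subconfluent to 21 d passed for all 42 genes under every alternative that was run except the 2-fold threshold, which 41 passed, and no call reversed. The counts at single steps were less stable. From subconfluent to confluent, 5 genes passed, against 0 with library size alone, 23 with DESeq2, 2 with no filter on low counts, 19 with only the groups compared, 21 without the 24 h libraries, 1 with limma on log2(RPKM + 0.1), 0 past 2-fold and 0 at an adjusted p under 0.01 (0 to 21 with a library left out). From confluent to 24 h, 5 passed, against 21 with DESeq2, 9 with at least 10 counts in every library, 0 with only the groups compared, 11 and 8 with limma on log2(RPKM + 1) and log2(RPKM + 0.1), 0 past 2-fold and 1 at 0.01 (0 to 19). From 24 h to 14 d, 26 passed, against 0 with only the groups compared, 1 past 2-fold and 6 at 0.01 (3 to 35). From confluent to 14 d, 42 passed and 14 did so past 2-fold (29 to 42). From 14 d to 21 d the count was 29 to 42 with a library left out, and that for a larger fall after confluence than before it 30 to 42. For a larger fall from 14 d to 21 d than from confluent to 14 d, 3 passed, against 0 with library size alone, 6 with DESeq2, 1 with no filter, 5 with at least 10 counts, 5 with only the groups compared, 12 without the 24 h libraries, 0 with limma at either pseudocount, 1 past 2-fold and 0 at 0.01 (0 to 12). The causes were not tested.

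The median log2 fold change moved from -1.27 to -1.01 (14 d to 21 d) and from -2.62 to -2.32 (subconfluent to 21 d) with limma on log2(RPKM + 1). From confluent to 14 d it moved from -0.90 to -1.13 with library size alone, -0.97 with no filter, and -1.07 and -1.10 with limma at pseudocounts of 1 and 0.1. Library size alone shifted the median of all genes there by -0.200 and gave 4971 lower and 2364 higher genes, against 3180 and 3508. From 24 h to 14 d, 41 of 42 genes were negative with upper-quartile factors, with at least 10 counts, with the replicate block and without 14 d A, and 39 without 24 h B. The replicate letters share only a letter: deviations of the same letter correlated at -0.29 to 0.144 between stages. With the replicate block, 0 genes passed from subconfluent to confluent, 3 from confluent to 24 h, and 1 for the larger fall from 14 d to 21 d.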
